A study of Caenorhabditis elegans with 4 samples.

Results

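The LIN-53 peaks of chromosome III were 247 of the 1221 peaks in the authors' combined list for late embryos of Caenorhabditis elegans. They were chosen by chromosome alone, as every row of that list placed on III. The rule used no measured value, but the members and lists were chosen with earlier results of these data known. Of the series' 4 samples, 2 were chromatin immunoprecipitations with sequencing (ChIP-seq) for LIN-53 and 2 were input DNA. All 4 came from hermaphrodite wild-type N2 worms, the standard laboratory strain, grown at 20 °C. Embryos bleached out of gravid adults were held in M9 buffer for 3.5 hours before freezing. The antibody, SDQ2370, was raised in rabbits against LIN-53 and is polyclonal and affinity-purified. The chromatin was that of whole embryos from liquid culture, so the lists cannot show in which embryonic tissue a site was bound. Nothing in the labels tells if separate cultures gave the 2 ChIP samples, so differences between them may be technical. The input samples were not used here.

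LIN-53 is a histone-binding protein with WD repeats, related to the mammalian proteins RBBP4 and RBBP7, which were found through their binding to the retinoblastoma protein. It has no enzyme activity of its own and acts as a shared subunit that places several chromatin complexes on histones. Among these are the DRM complex, which represses genes together with the worm retinoblastoma protein LIN-35, and the nucleosome remodelling and deacetylase complex. In worms LIN-53 is known from the synthetic multivulva genes, which restrain vulval cell fates, and from work on the germline and on cell identity. Worm autosomes have a gene-dense centre, where recombination is rare, between 2 arms that are richer in repeats and in heterochromatin marks.

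Each peak carries a score given by the authors, with no unit in the sources used here, from 51.82 up to a ceiling of 3100 among the combined peaks of III. The lists give scores and no read counts, so the depth behind a score is unknown, and scores rank peaks within a list only. The combined list had 247 peaks on III, replicate 1 had 229 and replicate 2 had 182. They covered 504.6 kb, 368.8 kb and 340.8 kb, which is 3.66%, 2.68% and 2.47% of the span of 13.77 Mb between base 1 and the last base called. The median combined peak was 1768 bp wide (quartiles 1321 and 2473 bp), against 1427 bp in replicate 1 and 1598 bp in replicate 2. The median score was 189.8 in the combined list, 231.9 in replicate 1 and 112.1 in replicate 2. Across the combined peaks of III the score said little about width (Spearman's rho 0.09 over 246 peaks with a start, across peaks that share their libraries).

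The first comparison asks which of these sites both ChIP samples contained. A combined peak counted as supported by a replicate when it overlapped a peak of that replicate by at least 1 bp. On III, 102 of 247 combined peaks overlapped both replicates (41.3%, 95% Wilson interval 35.3% to 47.5%), beside 37.7% in the combined list as a whole. A further 85 overlapped replicate 1 only (34.4%), 34 overlapped replicate 2 only (13.8%, 10.0% to 18.6%) and 26 overlapped neither (10.5%). On the other 4 autosomes the share found in both ran from 36.1% to 41.7%, so III stood within their range. The share found in replicate 1 only ran from 29.6% to 36.9% on those autosomes, a range that holds the 34.4% of III. It was 34.1% in the combined list as a whole. The share found in replicate 2 only ran from 18.4% to 20.4% on those autosomes, above the 13.8% of III. The share found in neither ran from 7.66% to 8.26%, below the 10.5% of III. These differences between chromosomes were not tested, and for the last class the interval of III (7.29% to 15.0%) holds the values of the other autosomes. For replicate 2 only, the interval of III holds the values of I (18.4%) and IV (18.5%), while those of V (19.7%) and II (20.4%) lie above it.

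**Figure D1:**
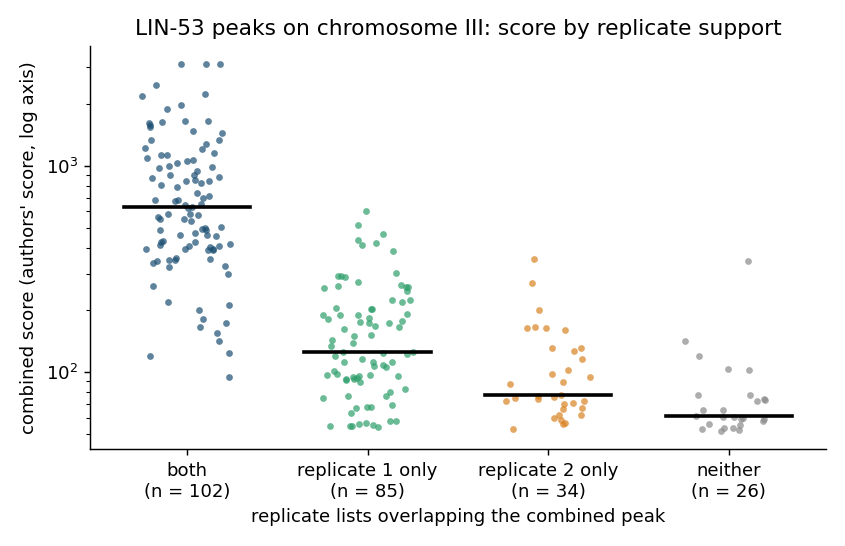
Combined score (authors' score, log axis) of each of the 247 combined LIN-53 peaks on chromosome III, grouped by the replicate lists that overlap the peak; points are peaks, spread sideways for visibility, and black lines are medians. The median is 627.5 for the 102 peaks found in both replicates and between 60.8 and 125.5 in the other classes.

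Support went with the score. The median combined score on III was 627.5 for peaks in both replicates, 125.5 for replicate 1 only, 77.0 for replicate 2 only and 60.8 for neither. In the same order, the medians on the other autosomes ran from 552.2 to 632.3, 112.3 to 151.5, 75.5 to 92.3 and 56.6 to 88.1. The higher scores of peaks in both replicates were thus not particular to III. On III the classes overlapped: peaks in both replicates went down to 94.99, and those in replicate 1 only went up to 605.7. In the highest score quartile of III, from 501.4 upwards, 60 of 62 peaks were found in both replicates (96.8%, 89.0% to 99.1%). In the next quartile 34 of 61 were (55.7%, 43.3% to 67.5%), and in the one below it 8 of 62 (12.9%, 6.69% to 23.4%). In the lowest quartile, up to 91.08, 0 of 62 were, which allows a share of up to 5.83% by the same interval. That quartile was divided almost evenly among replicate 1 only (21 peaks), replicate 2 only (20) and neither (21). The 50 highest-scoring combined peaks of III were all found in both replicates, as were 90 of the 100 highest. The replicate lists and the combined list come from the same libraries, so this relation is a description and not independent evidence. In the plot of score by support, the 2 peaks of the highest quartile that replicate 2 lacked scored 605.7 and 515.2.

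Peaks in replicate 1 only were the narrowest class, with a median of 1494 bp. The median was 1835 bp for peaks in both, 1932 bp for replicate 2 only and 2096 bp for neither. Replicate 1 only was also the narrowest class on the other autosomes, with medians from 1458 to 1580 bp. On III, Spearman's rho of score with width was 0.46 over 33 peaks in replicate 2 only and 0.58 over 26 peaks in neither. It was 0.10 over 85 peaks in replicate 1 only and 0.08 over 102 peaks in both. These are descriptions across peaks.

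Counted from the replicate lists, 105 of 229 replicate 1 peaks on III overlapped a replicate 2 peak (45.9%, 39.5% to 52.3%), beside 44.4% over all chromosomes. Of the 182 replicate 2 peaks on III, 105 overlapped a replicate 1 peak (57.7%, 50.4% to 64.6%), beside 47.1% over all chromosomes. Replicate 2 shares on the other autosomes ran from 39.3% to 51.0%, and those of replicate 1 from 40.7% to 50.3%. The replicate 2 share was thus higher on III than on any other autosome, by a margin that was not tested. It also rests on the smaller of the 2 lists of III. Shared replicate 1 peaks had a median score of 615.1 against 108.8 for the rest, and shared replicate 2 peaks 166.9 against 82.6.

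The sites with the strongest support are the 10 highest-scoring combined peaks of III that both replicates contained. The peak from 1618163 to 1620748 stood at the ceiling of 3100 in the combined list, with 2578 in replicate 1 and 1708 in replicate 2. The peak from 4756541 to 4758052 was at 3100 in the combined list and in replicate 1, and at 1037 in replicate 2. The peak from 7853903 to 7855722 was also at 3100 in both of those lists, and its 1978 was the highest replicate 2 score on III. These 3 sites were 3 of the 6 peaks at the ceiling in the whole combined list. A score at the ceiling is a lower limit, so the order among the 3 is unknown.

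Below the ceiling, the peak from 1949776 to 1952171 had a combined score of 2453, with 2809 in replicate 1 and 658.4 in replicate 2. The narrow peak from 7276785 to 7277927, 1143 bp wide, had 2235, with 2244 in replicate 1 and 603.1 in replicate 2. The broad peak from 3864276 to 3869305, 5030 bp wide, had 2182, with 3100 and 994.1 in the replicates. All 6 of these sites scored higher in replicate 1 than in replicate 2. The remaining 4 of the 10 scored 1968 (from 2417742 to 2419504), 1885 (from 7940382 to 7941611), 1653 (from 1858870 to 1860423) and 1651 (from 1961477 to 1963002). Their replicate 1 scores lay between 1424 and 1987, all above their replicate 2 scores of 352.0 to 701.6. Of the 10 sites, 6 lay in the left part of the chromosome, 4 in the central part and 0 in the right part.

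At 100 sites of III, 1 combined peak, 1 replicate 1 peak and 1 replicate 2 peak corresponded to each other and to no further peak. At these sites the replicate 1 score had a median of 622.3 and the replicate 2 score a median of 160.0. Replicate 1 was higher at 96 of the 100 sites and replicate 2 at 4, with a median log2 ratio of 1.93 (quartiles 1.18 and 2.46). With 1 library on each side and depth unknown, a stronger enrichment and a deeper library cannot be told apart. The order of the sites was similar in the replicates, with Spearman's rho 0.69 over the 100 sites, given as a description across peaks. The combined score followed replicate 1 (rho 0.96) more closely than replicate 2 (rho 0.81). Leaving out 4 sites at the ceiling in any list, the combined score was above both replicate scores at 44 of 96 sites, between them at 52 and below both at 0.

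**Figure D2:**
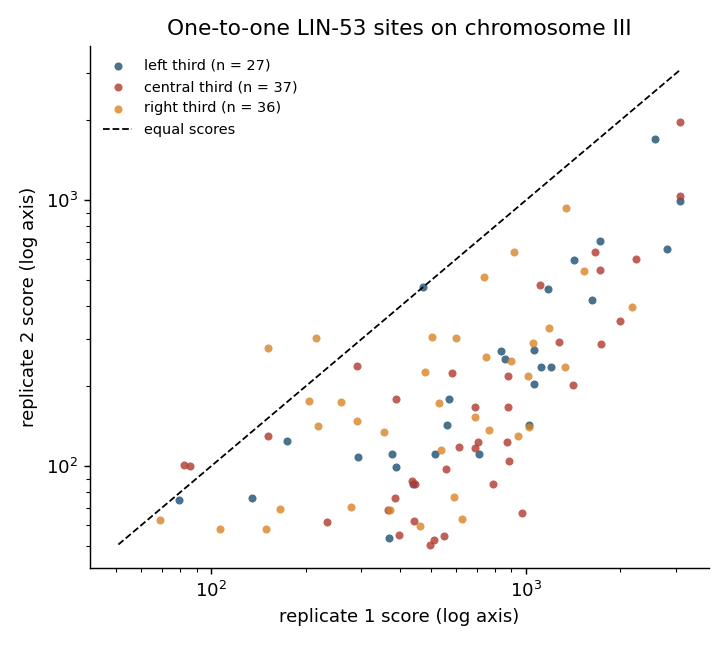
Score in replicate 1 (x axis) against score in replicate 2 (y axis), both on log axes, for the 100 one-to-one LIN-53 sites on chromosome III, coloured by the part of the called span they lie in; the dashed line marks equal scores. Of the 100 points, 96 lie below the line, and 4, of which 2 are central and 2 right, lie above it.

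The 2 lowest ratios and the highest were picked after their values were seen. The peak from 9780274 to 9782732 scored 151.5 in replicate 1 and 277.5 in replicate 2, a log2 ratio of -0.87, and its replicate widths of 2352 and 2404 bp were nearly equal. The peak from 13070015 to 13072511 scored 215.7 in replicate 1 and 304.3 in replicate 2, with widths of 2318 and 2434 bp. At the opposite end, the peak from 8627859 to 8631398 scored 971.9 in replicate 1 and 66.99 in replicate 2, a log2 ratio of 3.86, and was 3604 bp wide in replicate 1 against 1503 bp in replicate 2. By part of the chromosome, the median log2 ratio was 1.77 over 27 left sites, 2.37 over 37 central sites and 1.52 over 36 right sites.

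The replicate peaks of the 100 paired sites lay close together, which pairing by overlap with the same combined peak in part imposes. The midpoints of the paired peaks lay a median of 66 bp apart (quartiles 31.4 and 202.1 bp), within 200 bp at 74 of the 100 sites and within 500 bp at 87. The largest distance was 1138 bp. Replicate 1 peaks were the wider at 66 sites and replicate 2 peaks at 34, with medians of 1480 and 1393 bp and a median log2 ratio of 0.09. The combined peak was within 50 bp of the joint extent of both replicate peaks at 59 sites, and was wider than that extent at 70. Its median width at these sites was 1805 bp.

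The next comparison asks where along chromosome III the peaks lie, taking the left arm, centre and right arm as equal parts of the called span, 4.59 Mb each. The parts meet after base 4590816 and after base 9181633, and they approximate the arms without using a genetic map. The combined list had 74 peaks in the left part, 75 in the central part and 98 in the right part. The densities were 16.1 peaks per Mb (95% exact Poisson interval 12.7 to 20.2), 16.3 (12.9 to 20.5) and 21.3 (17.3 to 26.0). The right part thus held 39.7% of the peaks (33.8% to 45.9%), with a lower bound just above an even share of 33.3%. In replicate 2 alone the interval, 36.9% to 51.2%, lay above 33.3%. In replicate 1 alone the interval, 29.5% to 41.8%, included 33.3%. So did those of combined peaks that both replicates held (35.3%, 26.7% to 44.9%), of combined scores above the median of the list (35.1%, 27.5% to 43.5%) and of close peaks counted as 1 (37.1%, 30.6% to 44.0%). Intervals cover counting error only, and neighbouring peaks are not independent.

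The counts of the 2 replicates differed in this distribution, though their intervals overlap for the central and for the right share. Replicate 1 had 67, 81 and 81 peaks from left to right, and replicate 2 had 56, 46 and 80. The central share was 35.4% in replicate 1 (29.5% to 41.8%) and 25.3% in replicate 2 (19.5% to 32.1%), a mean of 30.3% ± 7.14 (SD, n = 2). The right share was 35.4% in replicate 1 and 44.0% in replicate 2, a mean of 39.7% ± 6.07 (SD, n = 2). The excess of the right part over the left was 14 peaks in replicate 1 and 24 in replicate 2, in the same direction in both. On the other autosomes the right share of combined peaks ran from 22.1% to 43.5%, a range that holds the value of III.

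**Figure D3:**
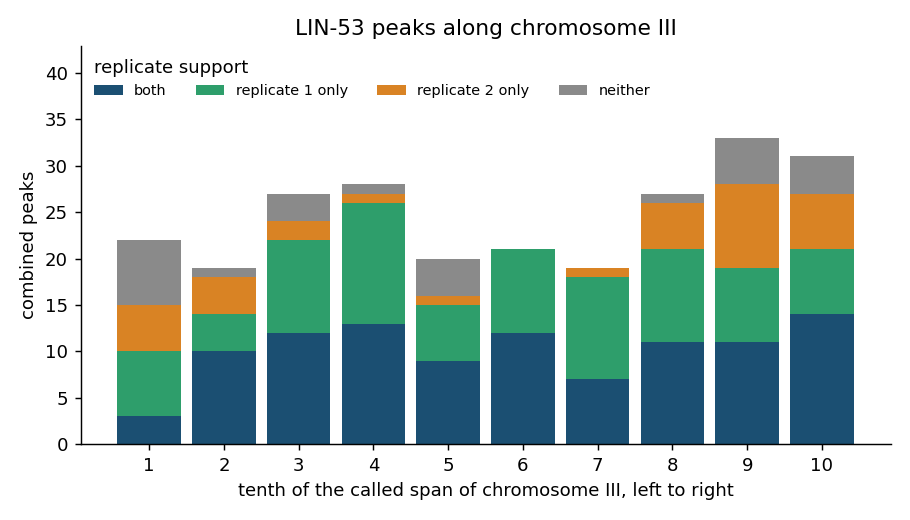
Number of combined LIN-53 peaks in 10 equal bins of the called span of chromosome III, from left to right, stacked by the replicate lists that overlap the peak. Peaks found in replicate 2 only number 9 in the ninth bar and 0 in the sixth, while peaks found in both replicates number 3 in the first bar and 14 in the last.

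The 2 largest classes of support had similar distributions along III, and peaks in replicate 2 only were few in the centre. Peaks found in both replicates numbered 28, 38 and 36 from left to right, and those in replicate 1 only numbered 24, 30 and 31. Peaks in replicate 2 only numbered 11, 2 and 21, so that 5.88% of the 34 were central (1.63% to 19.1%) and 61.8% were right (45.0% to 76.1%). Peaks in neither replicate numbered 11, 5 and 10. Among replicate 2 peaks that overlapped no replicate 1 peak, 8 of 77 lay in the central part (10.4%, 5.36% to 19.2%). Among replicate 1 peaks that overlapped no replicate 2 peak, 42 of 124 did (33.9%, 26.1% to 42.6%). The intervals cover counting error over peaks, which are not replicates, and the difference between the 2 libraries was not tested. Class comparisons by part were added once their values had been seen. On the other autosomes the central share of the first kind was 4.76% to 17.1% and that of the second 29.8% to 37.0%, and both ranges hold the values of III. Other shares of III lay outside the ranges of those autosomes. For combined peaks in replicate 2 only, the right share there was 22.0% to 53.7% and the central share 6.38% to 12.2%. For replicate 2 peaks that overlapped no replicate 1 peak, the right share was 22.0% to 46.3%, against 54.5% on III (43.5% to 65.2%). The intervals of III reach into these ranges, and the differences were not tested.

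Score and width also varied with position. Peaks in both replicates had a median score of 890.0 in the left part, 573.2 in the central part and 578.3 in the right part. On chromosomes I, II, IV and V the left medians of the same class were 474.1, 484.1, 630.8 and 535.7, all below the 890.0 of III, a difference that was not tested. The highest of their central and right medians was 881.2, in the right part of IV, so a part with scores this high was not particular to III. The 25 highest-scoring sites found in both replicates were divided into 10 left, 9 central and 6 right. Over all combined peaks, the highest score quartile made up 20 of 74 left peaks (27.0%), 22 of 75 central peaks (29.3%) and 20 of 98 right peaks (20.4%, 13.6% to 29.4%). Right peaks were the widest, with a median of 2022 bp against 1664 bp in the centre and 1541 bp on the left. Combined peaks covered 4.57% of the right part, which also held the most peaks, 3.34% of the central part and 3.08% of the left part. In replicate 1 the median widths were 1430, 1352 and 1448 bp from left to right, and in replicate 2 they were 1560, 1374 and 1723 bp.

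**Figure D4:**
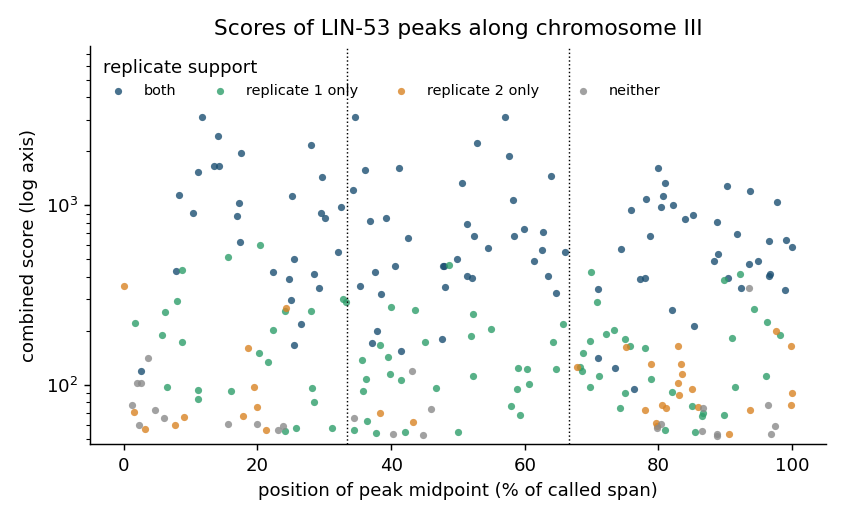
Combined score (log axis) of each of the 247 LIN-53 peaks on chromosome III against the position of its midpoint, as a percentage of the called span; colours give the replicate lists that overlap the peak and dotted lines divide the span into equal parts. None of the 10 highest-scoring peaks lies in the right part, and 3 peaks sit at the ceiling of 3100.

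The plot of scores along the chromosome shows the same members 1 by 1, and counts in windows of 1 Mb give their local density. Over the 13 full windows the combined list held 13 to 27 peaks, with a median of 16. The fullest window began at 11000001, with 27 combined peaks, 19 in replicate 1 and 23 in replicate 2. Of its 27 peaks 9 were found in both replicates and 9 in replicate 2 only, and their median score of 94.6 was the lowest of the 13 windows. The window that began at 5000001 held 22 combined peaks, with 21 and 12 in the replicates. The window that began at 10000001 held 21, with 18 and 14. This ranking leaves out the last 772.45 kb of the span, too short for a full window. That stretch held 18 combined peaks, with 14 in replicate 1 and 23 in replicate 2, and 23 was also the most for replicate 2 in any full window. The emptiest windows began at 6000001 and 7000001, with 13 combined peaks each, followed by the one at 9000001 with 14. The window at 7000001 nonetheless had the second-highest median score, 406.5, behind 434.6 in the window at 1000001. Replicate 1 had more peaks than replicate 2 in 10 of the 13 windows and fewer in 2. The first window had the least support, with 1 of its 15 peaks found in both replicates and 7 in neither.

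Spacing describes how the sites group. The median gap between neighbouring combined peaks of III was 33.8 kb (quartiles 14.2 and 84.2 kb), and 50 of 246 gaps were under 10 kb. Peaks joined by gaps under 10 kb formed 38 close groups, of which 29 were pairs, 6 had 3 peaks and 3 had 4 peaks. These groups held 88 of the 247 peaks (35.6%, 29.9% to 41.8%), within the 31.3% to 41.3% seen on the other autosomes. The share was 31.9% in replicate 1, within the 27.5% to 32.4% of the other autosomes, and 28.0% in replicate 2, below their 29.5% to 44.5%. A denser chromosome has more close neighbours for that reason alone, so the share does not measure clustering beyond density. In these groups 33 of 88 peaks were found in both replicates (37.5%, 28.1% to 47.9%), against 69 of 159 single peaks (43.4%, 35.9% to 51.2%). Of the grouped peaks 13 were in neither replicate (14.8%, 8.84% to 23.7%), and of the single peaks also 13 (8.18%, 4.84% to 13.5%). For both classes the intervals of grouped and single peaks overlap. In 7 of the 50 close neighbour pairs both peaks were found in both replicates. The share over all 246 neighbour pairs was not computed, so this count does not set close pairs apart from others.

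The 3 largest groups differed in support. The group from 7178654 to 7209491 had 4 peaks, with combined scores of 392.5, 247.6, 111.6 and 679.6 from left to right. Its outer peaks were found in both replicates and its inner peaks in replicate 1 only. The group from 10737669 to 10762206 had scores of 72.5, 394.6, 161.1 and 1089, and the peaks of 394.6 and 1089 were found in both replicates. The group from 13749806 to 13772450 reaches the last base called on III, with scores of 163.6, 76.8, 89.7 and 583.1. Its last peak was found in both replicates and the other 3 in replicate 2 only. Replicate 2 scored that group between 153.9 and 489.9.

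Other groups paired a very strong site with weak neighbours. The ceiling peak that begins at 4756541 had neighbours of 65.6 and 56.3 on its left, within a group of 9772 bp. The peak from 1532703 to 1535656, with 1539, lay 5 bp from a peak of 93.0 on its left, and 1 replicate 1 peak spanned both. It was the only neighbouring pair of III, of 246, that a single replicate peak joined. At the other extreme, the widest gap of III was 278.5 kb and ended at the ceiling peak that begins at 7853903. The next were 247.2 kb, from 9090181 to 9337366, and 238.1 kb, which lay between the ceiling peak ending at 1620748 and the peak that begins at 1858870. Each of these 3 gaps was bounded by a peak found in both replicates on at least 1 side. Many other gaps were too, since 102 of the 247 combined peaks were of that class, so this does not set the widest gaps apart.

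The 3 widest peaks of III were found in both replicates, and the next 4 were not. The widest, from 6566574 to 6574765, spanned 8192 bp, the widest of the whole combined list. It scored 457.0 in the combined list, 435.1 in replicate 1 and 87.8 in replicate 2. The next, from 10756004 to 10762206, spanned 6203 bp and scored 1089, with 1345 and 938.7 in the replicates. The one from 13459423 to 13465142 spanned 5720 bp and scored 1048, with 920.6 and 642.1. All 3 scored higher in replicate 1 than in replicate 2. The next 4, from 5099 to 5502 bp wide, were 2 peaks in replicate 1 only, 1 in replicate 2 only and 1 in neither, and they scored 125.7 to 260.5.

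Some strong peaks were supported by 1 replicate alone. The highest combined score in replicate 1 only was 605.7, from 2804671 to 2805836, with 817.6 in replicate 1 and the nearest replicate 2 peak 36.4 kb away. The next were 515.2, from 2151083 to 2152442, and 466.8, from 6709596 to 6710765, with 615.8 and 615.4 in replicate 1. The replicate 1 peak from 1207451 to 1208666 scored 635.0 and lay 3.76 kb from the nearest replicate 2 peak. For replicate 2 only, the highest combined score was 354.5, at the left tip. That peak has no start in the file and ends at 1274, and replicate 2 scored it 653.1. The first replicate 1 peak began 187.0 kb farther in. The next were 269.2, from 3333914 to 3337463, with 666.3 in replicate 2, and 200.3, from 13446391 to 13448782, with 75.4.

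The combined list did not hold every replicate peak of III. It held 81.7% of replicate 1 peaks and 75.3% of replicate 2 peaks there, beside 83.7% and 69.8% over all chromosomes. On the other autosomes these shares ran from 82.4% to 86.2% and from 61.3% to 74.7%. III lay just below the first range and just above the second, by margins that were not tested. On III the combined list lacked 42 of the 229 replicate 1 peaks, with scores from 50.26 to 244.7. It lacked 45 of the 182 replicate 2 peaks, with scores from 50.59 to 1959. The outlying value was the replicate 2 peak from 7443851 to 7449317, 5467 bp wide and the sixth highest of that whole list, whose nearest replicate 1 peak was 48.7 kb away. The next highest replicate 2 peak that the combined list lacked scored 228.8. In the opposite direction, the highest combined peak that neither replicate held scored 344.7, from 12877544 to 12880402. The next of that class scored 140.9, from 505418 to 510646, and 119.0, from 5940162 to 5943967.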

How the data were processed

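LIN-53 ChIP-seq peaks of late embryos were taken from 3 lists deposited by the authors, 1 for each of the 2 ChIP samples and 1 combined. Per the file headers, positions are on WormBase WS220, lifted from another build. Comments mark 5 combined peaks of III, 2 of replicate 1 and 1 of replicate 2 as altered by the lift. The score of each peak is the authors' own, deposited without a unit. Reads were aligned with BWA, per the submitters' processing notes. The source column names MA2C and the peak names MACS, so the caller is unsettled. The calling threshold, any use of input and the making of the combined list were not given in the sources used here.

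No peak was filtered out. A start given as a dot was read as 1 and gave no width. Overlap needed 1 bp, and close groups had gaps under 10 kb. Overlap and grouping were tested on simulated lists. Shares have 95% Wilson intervals, densities exact Poisson intervals, both for counting error only. No p-value was computed, since peaks are not replicates and 2 samples allow no test. Named peaks are the highest-scoring of each support class and of the unshared replicate peaks, the widest, the largest groups, the widest gaps, the chromosome's ends, and the fullest and emptiest windows. The sites of extreme replicate ratio, the class comparisons by part and the last 300 kb were added once their values had been seen. The members and lists were chosen with earlier results of these data known. No WS220 genome or gene annotation was used, so genes, sequences and motifs at the peaks are not analysed here. Software was matplotlib 3.10.9, pandas 2.3.3, scipy 1.17.1 and numpy 2.4.6 under Python 3.11.15.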

Additional observations from a re-analysis of the deposited data

How the results depend on the processing

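Of 34 alternative values for 7 results, 19 stayed within the counting error or the spread between the replicates and 15 moved beyond it. Some of the 19 could not have moved. For the central and right shares the spread came from the same single replicate lists, and the combined value lay near their mean. Replicate 1 held no peak without a start on III, so leaving such peaks out could not change its share. The shares of peaks overlapping fell with midpoints within 200 bp, to 28.3% of combined peaks in both replicates, 32.8% of replicate 1 peaks and 41.2% of replicate 2 peaks. With scores above the median of each list they were 50.0%, 57.3% and 66.3%. With a centre of 50% and outer parts of 25%, the central share was 45.3% and the right share 32.8%, parts of another size by construction. The central share ranged from 25.3% to 35.4% and the right share from 35.4% to 44.0% over the single replicate lists. The median width there ranged from 1427 to 1598 bp and the share in close groups from 28.0% to 31.9%. That share was 24.7% with gaps under 5 kb, 52.2% with gaps under 20 kb and 16.4% for scores above the median, where fewer peaks remain to be neighbours. No combined list was remade without a replicate. No paired analysis was possible because the replicate numbers pair each ChIP sample with an input sample, and no list of peaks for input was at hand. Without read counts, what depth limits is unknown.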

Other observations

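The right end of III held a run of replicate 2 peaks that the combined list lacks. In the last 300 kb of the called span, replicate 2 had 14 peaks, replicate 1 had 5 and the combined list 7. Of the 14, 5 overlapped a replicate 1 peak and 6 a combined peak. The largest close group of either replicate on III lay there, with 5 replicate 2 peaks from 13584081 to 13598042 that scored 66.1 to 228.8, and none of the 5 overlapped a combined peak. A replicate 1 peak from 13592806 to 13595922, with 146.4, overlapped 2 of them, so this is a site of both replicates without a combined peak. The only other on III was the replicate 1 peak from 2111098 to 2112597, with 244.7.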
